A study of Mus musculus with 34 samples.

Results

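Loss of inclusion was followed across 27 small molecules in 44527 exons of mouse N2A cells that were included almost completely in untreated controls. The exons were chosen by their measured inclusion in the control libraries: each was longer than 50 nt, had a percent spliced in (PSI) of 95 or more in every one of the 3 DMSO libraries, and had a coverage score of SOK or OK in all 3. PSI is the percent of a gene's informative junction reads that include the exon, so 100 means that no read skipped it. The 44527 exons, called members here, lay in 7622 genes and made up part of the 160750 exon events in the splicing table, of which 151965 were longer than 50 nt. In 26525 members (59.6%) the PSI was 100 in all 3 DMSO libraries. At the limit itself, the 42 members closest inside had a lowest DMSO PSI of 95 to 95.04, and the 41 exons closest outside had 94.95 to 94.99. Because DMSO values selected the members, a lower value with a compound than in DMSO is given below as a description with no test. Tests were made only between compounds, whose values took no part in the choice.

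N2A (Neuro-2A) is an established mouse neuroblastoma line, and one line was used throughout. The cells were treated for 24 h, and all 34 libraries, controls included, came from cells at a final concentration of 0.4% DMSO. The 3 control libraries (A, B and C) received DMSO alone, 4 histone deacetylase (HDAC) inhibitors had 2 libraries each (A and B), and the other 23 compounds had 1 library each. Compounds had been picked in reporter screens for their effect on microexons, very short neuronal exons: 17 were activators and 10 were inhibitors of microexon inclusion. The activators were the HDAC inhibitors Vorinostat, CI-994, BRD6688 and BRD4884, the kinase inhibitors A-443654 (AKT1), NVP-AEW-541 (IGF1R), Trametinib (MEK1/2), Crenolanib (PDGFR), SCH-772984 (ERK) and GNF-5837 (TRK), the benzenesulfonamides BTB12021, RDR00572, S02045 and RH01954, and BTB13120, BTBS00065 and SEW06315. The microexon inhibitors were the DNA methyltransferase inhibitor 5-azacytidine, the WEE1 kinase inhibitor MK-1775, and AW00693, SPB00858, JFD00822, T5635931, T5758020, T5963258, T5985871 and 7678804, for which no target is given. Concentrations differed between compounds, so compound and concentration cannot be told apart. With 1 library a compound there is no replicate check, and p-values between classes measure the spread between compounds.

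Junction reads over the members ran from 18217512 to 42988736 per library, with Vorinostat A the lowest and DMSO A the highest, and DMSO C had 21200992. The line's neuronal and sympathetic markers were mostly present in DMSO: Tubb3 (neuronal tubulin) stood at 395.99 RPKM (reads scaled to gene length and library size, 1 value per treatment as deposited), Stmn2 at 174.75 and Hand2 at 247.51. The neurofilament genes Nefl and Nefm, both at 0.01 RPKM, were the exceptions, and Ptprc, Cd68, Pecam1, Gfap, Mbp, Col1a1, Krt5 and Alb, markers of other cell types, lay between 0.0 and 1.93 RPKM. For the members, 43784 (98.3%) matched an exon of the GENCODE annotation by the lengths of the exon and its flanking introns, and 96.4% of the matched exons were wholly coding. The median member was 124 nt long, in a range of 51 to 6836 nt, and was covered by 388 reads in DMSO.

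Constitutive exons are joined into almost every copy of a mature mRNA, whereas alternative exons are included in some copies and left out of others. The spliceosome recognises an exon through the splice sites at both of its ends, with U1 binding at the 5′ splice site and U2 at the branch point upstream, and SR and hnRNP proteins on the exon help or hinder that recognition. Leaving out a coding exon whose length is not a multiple of 3 shifts the reading frame, which often brings a premature stop codon and decay of the mRNA.

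The exons that carried the main differences are printed first, so that the values can be read beside them. Sequences are those of GENCODE vM21 transcripts (GRCm38) and positions are those of the splicing table (mm9). Capitals mark the last 3 bases of the exon, which belong to the 5′ splice site. Their pairing with U1 snRNA was not tested. The first 4 exons were the members that separated the benzenesulfonamides most clearly from all other compounds. They were exon 4 of 12 in Tmem209 (chr6:30456786-30456917, minus strand), exon 10 of 12 in Dbf4 (chr5:8403080-8403191, minus strand), exon 32 of 35 in Cdc42bpa (chr1:182081291-182081408, plus strand) and exon 9 of 19 in Cenpc1 (chr5:86464441-86464614, minus strand), all coding.
Tmem209: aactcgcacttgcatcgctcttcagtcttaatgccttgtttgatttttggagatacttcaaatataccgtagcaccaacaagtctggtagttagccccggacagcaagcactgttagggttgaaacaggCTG
Dbf4: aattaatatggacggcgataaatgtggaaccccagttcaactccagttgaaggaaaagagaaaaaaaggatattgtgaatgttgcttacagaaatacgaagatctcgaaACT
Cdc42bpa: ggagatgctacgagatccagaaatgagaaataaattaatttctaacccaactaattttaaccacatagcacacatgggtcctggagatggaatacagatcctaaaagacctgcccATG
Cenpc1: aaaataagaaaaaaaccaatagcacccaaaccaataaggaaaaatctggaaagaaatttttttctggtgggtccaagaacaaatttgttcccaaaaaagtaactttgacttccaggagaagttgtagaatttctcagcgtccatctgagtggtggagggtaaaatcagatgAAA

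The next exons were those called skipped with the most compounds, and the 2 after them had the largest differences from DMSO with T5985871 and MK-1775. The recurrent exons were exon 19 of 25 in Stk11ip (chr1:75529202-75529305, plus strand), exon 7 of 8 in Irf3 (chr7:52257043-52257158, plus strand) and exon 14 of 21 in Lrch3 (chr16:32990351-32990404, plus strand). Exon 35 of 58 in Nbea (chr3:55695535-55695596, minus strand) stood out with T5985871, and exon 8 of 10 in Qtrt1 (chr9:21223883-21223992, plus strand) with MK-1775. All 5 were coding, and of these only the Lrch3 exon, at 54 nt, has a length that is a multiple of 3.
Stk11ip: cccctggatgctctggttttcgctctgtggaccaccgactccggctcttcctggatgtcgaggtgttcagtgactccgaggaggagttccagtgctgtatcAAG
Irf3: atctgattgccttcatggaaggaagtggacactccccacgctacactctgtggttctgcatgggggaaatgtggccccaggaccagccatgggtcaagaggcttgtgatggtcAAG
Lrch3: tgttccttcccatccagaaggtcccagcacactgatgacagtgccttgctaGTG
Nbea: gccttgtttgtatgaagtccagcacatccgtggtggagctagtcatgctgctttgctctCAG
Qtrt1: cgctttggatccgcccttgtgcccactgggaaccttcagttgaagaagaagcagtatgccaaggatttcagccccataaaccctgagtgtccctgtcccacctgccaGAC

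Most near-constitutive exons were called skipped with no compound, and a small set was. A member was called skipped with a compound when its mean PSI was at least 10 below the DMSO mean with a posterior probability above 0.95 from its reads, the thresholds the study used. Of 44243 members that could be compared with DMSO for at least 1 compound, 1395 (3.15%), in 1146 genes, were called skipped at least once. The remaining 284 members could not be compared, since this needed passing values in at least 2 DMSO libraries and 1 compound library. In DMSO A, B and C, 44249, 44216 and 44213 members passed. There the rule had set the coverage score but not the score of read balance. Most called members were called only once: 999 were called with 1 compound, 222 with 2, 94 with 3, 39 with 4 and 41 with 5 or more, up to 9. In all, 2120 calls were made among 1185859 tested pairs of member and compound. Without the posterior condition the count was also 2120, so the difference of 10 PSI alone set the calls. Asking for at least 20 reads in every library left all 1185859 tested pairs in place and so gave 2120 as well, which is no check on coverage. Leaving out DMSO C, the shallowest control, from the mean gave 2058 calls.

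Controls set the scale for these counts. When each DMSO library was treated as a compound and members were chosen on the other 2, 26 of 44704 exons (0.0582%) were called in library A, 25 of 44703 (0.0559%) in library B and 89 of 46763 (0.19%) in library C. Exons called in library C had a median of 59 reads there. The share of members called lay above the highest of these control values with 9 compounds, and with the other 18 it lay at or below it.

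T5985871 gave the most skipping, with 348 of 43025 tested members called (0.809%). By the same rule 1429 of 54404 exons of the table that could be tested, members included, were called (2.63%). This second share is given below as all exons. Among tested exons over 50 nt outside the members it was 9.94% with T5985871 (895 of 9005). MK-1775 followed with 273 of 44039 (0.62%, all exons 2.65%). Both are microexon inhibitors, and 232 of the T5985871 exons and 146 of the MK-1775 exons were called with no other compound. Activators of the benzenesulfonamide class came next or close behind: RDR00572 had 165 members called (0.376%, all exons 2.02%), BTB12021 had 146 (0.332%, all exons 1.74%) and S02045 had 110 (0.25%, all exons 1.72%). The other benzenesulfonamide, RH01954, had 59 (0.134%, all exons 0.989%), which was the median share over the 27 compounds. Among kinase inhibitors that activate microexons, A-443654 stood apart with 120 (0.272%, all exons 1.63%). The others of that class lay at or below the highest control: GNF-5837 had 38 (0.0875%, all exons 0.496%), SCH-772984 had 37 (0.0839%, all exons 0.428%), Crenolanib had 35 (0.0801%, all exons 0.452%), NVP-AEW-541 had 29 (0.0658%, all exons 0.424%) and Trametinib had 24 (0.0546%, all exons 0.341%).

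The other microexon inhibitors formed a middle group. JFD00822 had 95 members called (0.215%, all exons 1.32%), 5-azacytidine 90 (0.205%, all exons 1.02%) and AW00693 85 (0.193%, all exons 1.34%). Below the highest control lay 7678804 with 61 (0.139%, all exons 0.954%), T5635931 with 60 (0.136%, all exons 0.951%), T5758020 with 60 (0.136%, all exons 1.15%), T5963258 with 49 (0.111%, all exons 0.774%) and SPB00858 with 48 (0.109%, all exons 0.743%). The remaining activators had few: BTB13120 had 62 (0.141%, all exons 0.706%), SEW06315 had 32 (0.0729%, all exons 0.377%) and BTBS00065 had 20 (0.0454%, all exons 0.306%). Counts for the HDAC inhibitors, whose PSI is a mean of 2 libraries, were also low: Vorinostat had 28 (0.0642%, all exons 0.602%), CI-994 25 (0.0571%, all exons 0.515%), BRD6688 15 (0.034%, all exons 0.37%) and BRD4884 6 (0.0136%, all exons 0.307%). These counts depend on the averaging. With 1 library each, as for the other 23 compounds, library B gave 74 for Vorinostat, 75 for CI-994, 47 for BRD6688 and 34 for BRD4884, and library A gave 56, 68, 50 and 33 in the same order. These are shares of 0.0749% to 0.173%, within the range of the DMSO libraries. All of these counts share the same 3 DMSO libraries.

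**Figure D1:**
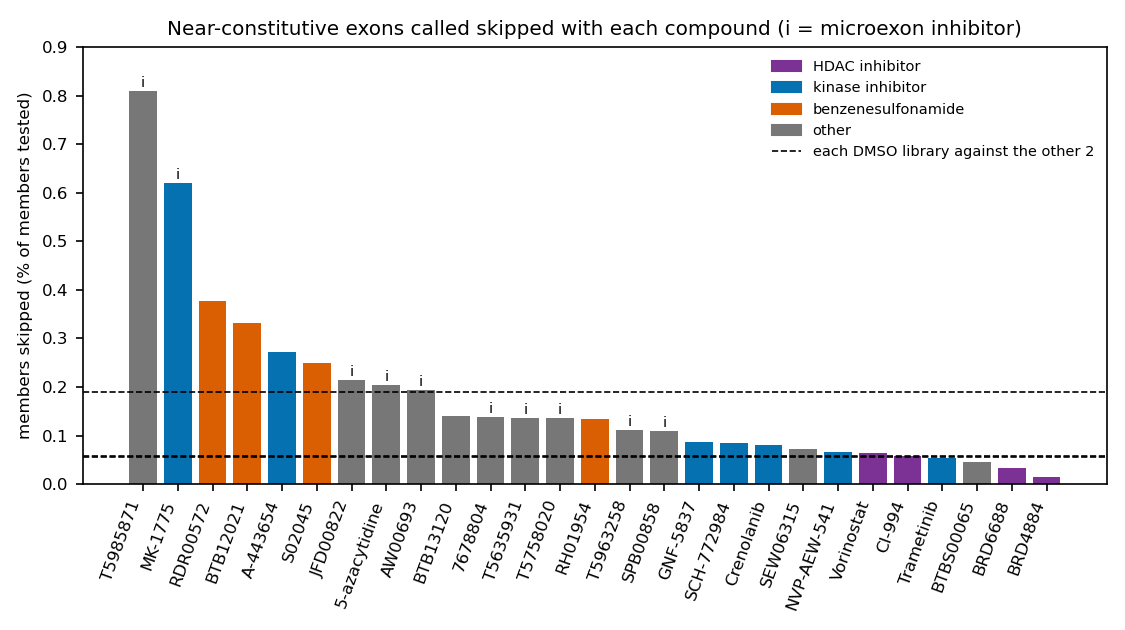
Percent of tested near-constitutive exons called skipped with each of the 27 compounds, coloured by class, with i marking microexon inhibitors; dashed lines give the same call for each DMSO library against the other 2. T5985871 (0.809%) and MK-1775 (0.62%) stand highest, and 18 bars lie at or below the highest DMSO line (0.19%); the HDAC inhibitor bars rest on means of 2 libraries.

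Where an exon was called, the difference from DMSO was mostly modest. The median difference per compound ran from -14.0 PSI with S02045 to -11.1 PSI with Trametinib, close to the limit of the call. Differences of 20 PSI or more were found for 40 members with T5985871, 22 with RDR00572, 18 with MK-1775, 17 with BTB12021, and 16 each with A-443654 and S02045. Only 2 pairs of exon and compound differed by more than 50 PSI, and these were singled out after their values were seen: Fam82b with RDR00572 and Heatr7a with AW00693.

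The mean level of skipping separated microexon inhibitors from activators. Here the mean of 100 minus PSI was taken over the 39671 members measured in all 34 libraries, with no call and no DMSO value, a measure chosen after seeing the data. The 3 DMSO libraries lay between 0.298% and 0.323%, and the 8 HDAC inhibitor libraries between 0.295% and 0.343%. The 10 microexon inhibitors had a lowest value of 0.38%, a median of 0.524% and a highest of 0.901% (MK-1775), and the 17 activators had 0.293%, 0.32% and 0.588% (A-443654). Although the ranges overlap, all 10 inhibitors lay above the activators' median. Mean skipping was 0.558% ± 0.166 (SD, n = 10) against 0.377% ± 0.0979 (SD, n = 17), a difference of 0.181 percentage points (two-sided permutation test over compounds, p = 0.00085, adjusted p = 0.0034 over 4 class comparisons). Without T5985871 and MK-1775 the difference was 0.113 (exact permutation test, p = 0.0109), and without the HDAC inhibitors it was 0.163 (permutation test, p = 0.00707). Member junction reads ran from 25630466 to 35381240 in the inhibitor libraries and from 20581040 to 41960716 over the activators.

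Expressed as the share of members called, the same comparison did not pass: inhibitors averaged 0.267% and activators 0.127% (permutation test, p = 0.0389, adjusted p = 0.151). No class differed from the rest in this share. Benzenesulfonamides averaged 0.273% against 0.163% (exact permutation test, p = 0.245, adjusted p = 0.327), HDAC inhibitors 0.0422% against 0.203% (exact permutation test, p = 0.0753, adjusted p = 0.151), and kinase inhibitors 0.181% against 0.179% (exact permutation test, p = 0.986). The HDAC inhibitors' difference of -0.161 percentage points was -0.0709 from library B alone and -0.0839 from library A alone (exact permutation tests, p = 0.49 and p = 0.395). In the mean level, the benzenesulfonamides did not differ from all other compounds, 0.496% ± 0.0454 (SD, n = 4) against 0.435% ± 0.164 (SD, n = 23; exact permutation test, p = 0.481, adjusted p = 0.641). Set against the other 13 activators alone, at 0.34% ± 0.0778, they were higher (exact permutation test, p = 0.00336, chosen after seeing the data). HDAC inhibitors, at 0.317% against 0.466%, missed the threshold (exact permutation test, p = 0.0631, adjusted p = 0.126), as did kinase inhibitors (exact permutation test, p = 0.931).

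**Figure D2:**
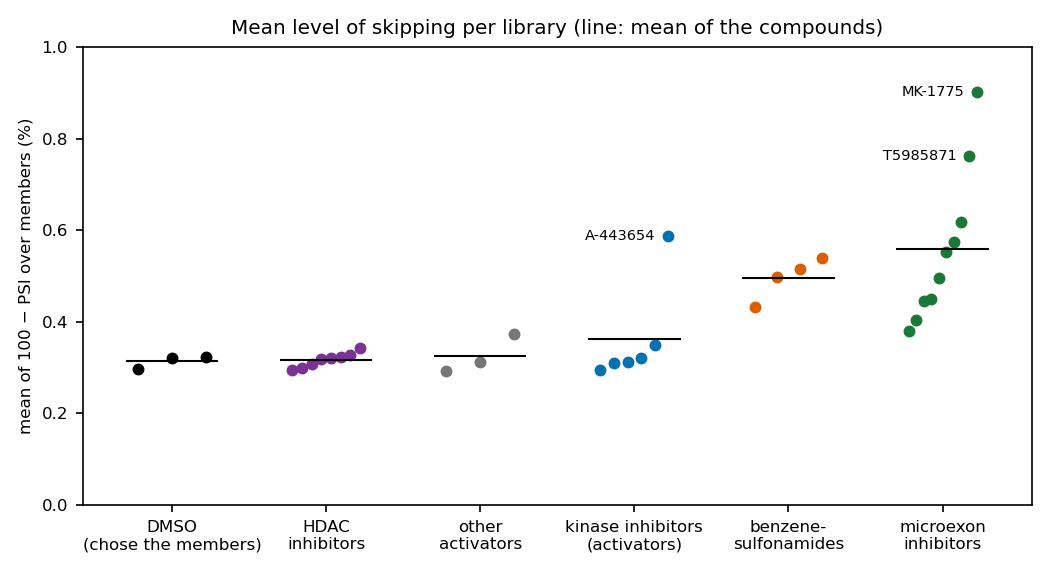
Mean of 100 minus PSI (%) over 39671 members in each library, by group, where points are libraries and lines are means over compounds. DMSO and HDAC inhibitor libraries lie between 0.295 and 0.343%, all benzenesulfonamides lie at 0.433% or higher, and MK-1775 (0.901%) and T5985871 (0.762%) lie highest.

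Individual exons were then compared between classes without the DMSO libraries. PSI values, 1 per compound, were fitted with limma over the exons of the table that had enough values, members included. Benjamini-Hochberg adjustment was made over all of these exons, which are given below as all exons. The 4 benzenesulfonamides had 19 members, in 19 genes, that were lower than with the other 23 compounds at adjusted p below 0.05 by at least 10 PSI, which is 0.0432% of 44028 members tested, beside 0.572% of all exons. None were higher by that size, where an unadjusted p below 0.05 also gave 0. At any size of difference, 350 members were lower and 13 higher, and 0.795% of members were lower beside 1.5% of all exons lower and 0.306% higher. The class rests on a benzenesulfonamide group in the chemical names of the 4 compounds.

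Tmem209, which encodes a nuclear envelope protein, had the largest difference. Its exon 4, the first sequence above, had PSI values of 97.9, 97.3 and 96.2 in DMSO A, B and C. With BTB12021 it was included at 58.9, with RDR00572 at 60.1, with S02045 at 60.3 and with RH01954 at 81.3. Over the other 23 compounds the lowest value was 89.5 (T5985871), the median 95.1 and the highest 98.2, so all 4 benzenesulfonamides lay below every other compound. The class mean was 65.1 ± 10.8 (SD, n = 4) against 94.9 ± 2.24 (SD, n = 23), a difference of -29.8 PSI (limma, adjusted p = 9.3e-08). Coverage was deep, with at least 3536 reads in each benzenesulfonamide library, and the exon of 132 nt keeps the reading frame when skipped. RPKM of the gene was 151 in DMSO and, with the 4 compounds, 0.17 to 0.31 higher on the log2(RPKM + 0.5) scale.

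Dbf4, the activating subunit of the Cdc7 kinase that fires replication origins, again had RH01954 as the highest of the 4. PSI of its exon 10 was 72.4 with BTB12021, 79.7 with RDR00572, 73.9 with S02045 and 88.5 with RH01954, and it ran from 93.6 over a median of 97.2 to 98.3 with the other 23. DMSO A, B and C had 97.6, 95.4 and 97.2. The groups did not overlap, and the difference was -18.1 PSI (limma, adjusted p = 3.7e-07). At 112 nt the exon shifts the frame, and gene RPKM with the class was between -0.22 and -0.17 relative to DMSO on the log2(RPKM + 0.5) scale.

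Cdc42bpa encodes MRCK alpha, a kinase that acts on myosin downstream of Cdc42. Inclusion of its exon 32 was 82.6 with BTB12021, 86.6 with RDR00572, 78.5 with S02045 and 89.9 with RH01954, whereas the other 23 compounds ran from 95.4 over 97.7 to 99.8. DMSO A, B and C had 98.1, 98.4 and 98.3. The difference was -13.2 PSI (limma, adjusted p = 7.6e-07), again with no overlap. Cenpc1 encodes the kinetochore protein CENP-C, which binds the centromere. Exon 9 was included at 80.2, 76.2, 79.0 and 86.9 with BTB12021, RDR00572, S02045 and RH01954, and from 91.8 over 98.1 to 100 with the rest, while DMSO A, B and C had 98.5, 98.6 and 95.4. The difference of -17.1 PSI (limma, adjusted p = 4e-05) left the groups apart.

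The other 15 of the 19 exons lay in genes of varied function. Atr, the apical kinase of the replication stress response, had PSI values of 82.6, 80.2, 83.5 and 89.9 with BTB12021, RDR00572, S02045 and RH01954 (difference -13.5, limma, adjusted p = 0.0031). Ralgapb, a subunit of the GTPase activating complex for Ral, had 71.4, 72.4, 71.5 and 84.0 in the same order (difference -19.4, adjusted p = 0.00012), although Vorinostat, at 83.1, reached into that range. Mpi, which interconverts fructose and mannose phosphate, had 78.5, 74.1, 88.2 and 79.6 (difference -14.0, adjusted p = 6.1e-05). Atn1, the atrophin corepressor, had 71.3, 73.7, 79.7 and 81.0 (difference -17.9, adjusted p = 0.00054), with MK-1775 at 80.1. Chrna7, the alpha7 nicotinic receptor subunit, had 71.5, 86.6, 88.9 and 95.1 (difference -12.8, adjusted p = 0.004). Differences in the rest (0610007P08Rik, now Ercc6l2, and Txndc11, Zfp930, Aim2, Mlkl, Ccdc45, now Cep95, Crocc, Lrch3, Plxna3 and Coro7) lay between -18.6 and -10.4 PSI, with adjusted p up to 0.036.

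Within the class, RH01954 gave the smallest loss. It had the highest PSI of the 4 in 12 of the 19 exons and the lowest in 0, and its median over the 19 was 87.7, beside 80.0 with BTB12021, 76.2 with RDR00572, 83.3 with S02045 and 97.3 for the other 23 compounds. All 4 lay below every other compound in 10 exons, and at least 3 did in 18. These orders are descriptions, since each compound had 1 library and concentrations were not matched. Leaving out RH01954 raised the count from 19 to 32, and leaving out any other member of the class gave 15 or 16. Only the Tmem209 exon passed with a difference of 20 PSI. Of the 19 exons, 9 have a length that is a multiple of 3, and their median GC content was 41.8%, beside 50.4% over all members tested.

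**Figure D3:**
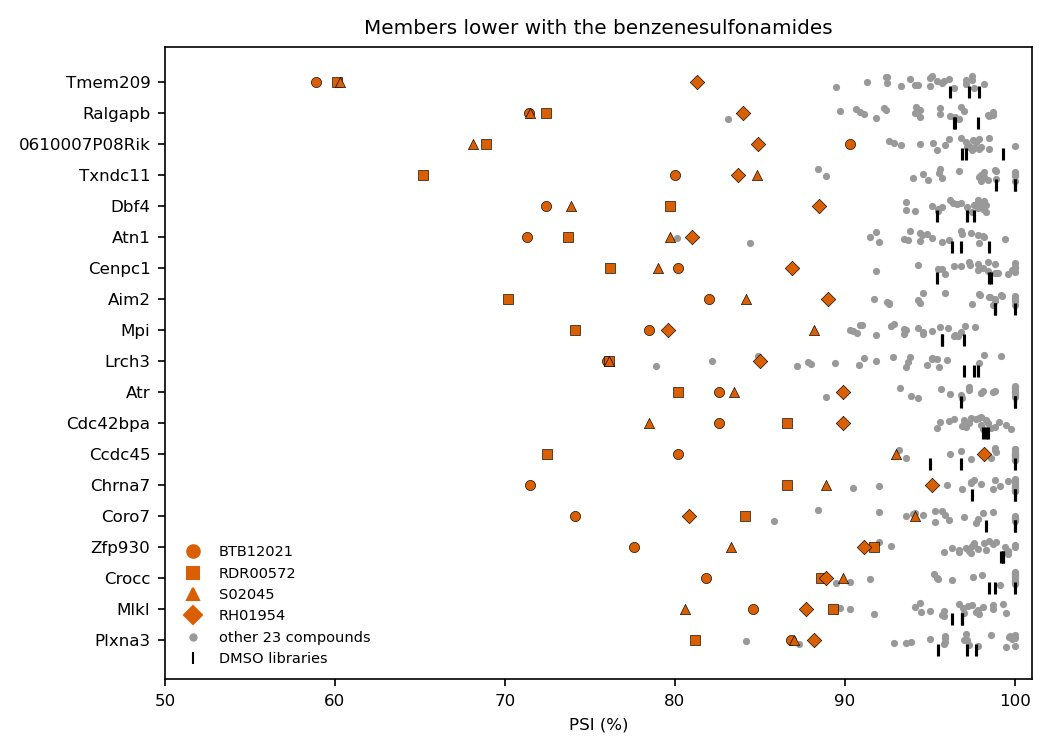
PSI (%) of the 19 members that were lower with the benzenesulfonamides by limma, with 1 orange symbol per benzenesulfonamide, grey points for the other 23 compounds and black ticks for the DMSO libraries. In the Tmem209 exon BTB12021, RDR00572 and S02045 lie at 58.9 to 60.3 and RH01954 at 81.3, all below the lowest other compound at 89.5.

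None of the other class comparisons gave a member that passed in limma with a difference of 10 PSI or more. For HDAC inhibitors against the rest the count was 0 of 43945 (1 at unadjusted p below 0.05, and 0 on the PSI or logit scale), beside 0.0156% of all exons. For kinase inhibitors it was 0 of 44203 (0 at unadjusted p below 0.05, and 0 on either other scale), beside 0.0% of all exons. For microexon inhibitors against activators it was 0 of 44108 (1 at unadjusted p below 0.05, 0 on the PSI scale and 1 on the logit scale), beside 0.332% of all exons. At any size of difference, however, 297 members (0.673%) were lower with the microexon inhibitors and 3 were higher, beside 1.4% of all exons lower and 0.131% higher. Here too, the choice of members near full inclusion left little room for higher values.

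T5985871 led the list by count. Nbea, a neuronal scaffold protein of membrane traffic, had a PSI of 100 in DMSO A, B and C and 64.3 with T5985871, on 41 reads, while the next lowest compound was 5-azacytidine at 90.8. Letm2, a mitochondrial inner membrane protein gene, had 100 in all 3 DMSO libraries and 70. Pex11c (Pex11g), a peroxisome division factor gene, also had 100 in each control and stood at 70.7 on 35 reads, with every other compound at 94.7 or higher. 4922501C03Rik (Cep162), a centriole and cilium gene, had 96.8, 100 and 100 in DMSO and 70 with T5985871. Each of these was close to full inclusion with most other compounds, and each was read by fewer than 100 reads in the T5985871 library. However, 2 of the exons were also called with another compound: 4922501C03Rik with 7678804, at 81.9, and Letm2 with Trametinib, at 89.2. For 4922501C03Rik 17 of the 27 compounds were at 95 or higher.

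With MK-1775 the leading exons varied in coverage. Tars2, the mitochondrial threonyl-tRNA synthetase gene, had 95.5, 95.8 and 95.5 in DMSO A, B and C and 67.0 with MK-1775, on 457 reads. This exon was sensitive to several compounds: the next lowest was A-443654 at 74.9, the median over 27 compounds was 88.9, and 5 compounds were called. Qtrt1, the catalytic subunit of tRNA-guanine transglycosylase, had 98.4, 96.6 and 95.5 in DMSO and 68.1 with MK-1775 on 237 reads, with introns of only 72 and 76 nt on either side. Rgl2, a Ral guanine exchange factor gene, had 97.2, 96.4 and 100 in DMSO and 71.2 with MK-1775 on 196 reads. Lmbr1l, a membrane receptor gene, had 100 in each control, 73.1 with MK-1775 on 45 reads and a still lower 62.3 with SPB00858.

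With A-443654 the best covered of the leading exons was that of Sbno2, a transcriptional coregulator gene, on 582 reads. PSI was 96.9, 95.2 and 99.5 in DMSO A, B and C and 71.7 with A-443654, and no other compound went below 91.5. Mll3 (Kmt2c), a histone H3 methyltransferase gene, had 96.2, 98.3 and 96.8 in DMSO and 70.3 with A-443654, followed by MK-1775 at 79.3. Ranbp17, a nuclear transport receptor gene, had 95.6, 100 and 100 in DMSO and 68.2 with A-443654. Zfp873, a zinc finger gene, had 95.6, 100 and 97.6 and was at 71.8 on 48 reads.

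RDR00572 gave the single largest difference of all, in an exon with little coverage. Fam82b (Rmdn1), which encodes a microtubule regulator, had 98.1, 96.3 and 97.0 in DMSO A, B and C, and 13.5 with RDR00572 on 21 reads. The same exon was called with 7 compounds, and for BRD4884, 1 of those, the 2 libraries disagreed, at 60.7 (A) and 97.6 (B). Slc9a7, a Golgi sodium-proton exchanger gene, had 97.0, 100 and 100 in DMSO and 60.2 on 40 reads with RDR00572, and Cklf, a chemokine-like gene, had 100 in each control and 62.5 on 52 reads. AC151908.1, a gene known by a clone name, had 100 in each control, 72.0 with BTB12021 and 82.9 with RDR00572. The other exon that differed by more than 50 PSI, in Heatr7a (Mroh1), had 100 in DMSO A, B and C and 26.1 with AW00693 on 100 reads, and the next lowest compound mean was 88.7 (Vorinostat).

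A few exons were called with many compounds, from several classes. Stk11ip, which encodes a binding partner of the LKB1 kinase, was called with 9: PSI was 96.4, 96.6 and 95.2 in DMSO A, B and C, the lowest compounds were RDR00572 at 73.0 and BTB13120 at 73.2, the median over 27 was 91.3 and the highest was 100. Irf3, the interferon response transcription factor, was called with 8, from A-443654 at 71.1 over a median of 93.5 to 100, beside 96.4, 95.9 and 97.3 in DMSO. Lrch3, a leucine-rich repeat protein of the cytoskeleton, was called with 8 too, including all 4 benzenesulfonamides, from 76.0 over 91.8 to 99.2, beside 97.0, 97.6 and 97.8 in DMSO. In these exons the compounds spread widely rather than splitting into a high and a low group.

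Fam160b2 was called with 8 compounds, from 73.3 (AW00693) over a median of 93.9 to 100. Cenpo, a kinetochore gene of the CENP-O complex, was called with 8, from 80.0 (JFD00822) over 91.1 to 100. Ift80, which carries cargo in cilia, was called with 7, from 76.8 (AW00693) over 91.9 to 100. Csgalnact2, an enzyme gene of chondroitin synthesis, was called with 7, from 81.1 (SCH-772984) over 97.4 to 100, and was at 100 in all 3 DMSO libraries. The compounds called for Cenpo did not include any benzenesulfonamide, while Ift80 was called with all 4. For Irf3, Fam160b2, Cenpo, Fam82b and Csgalnact2 the controls had only 48 to 128 reads per library.

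**Figure D4:**
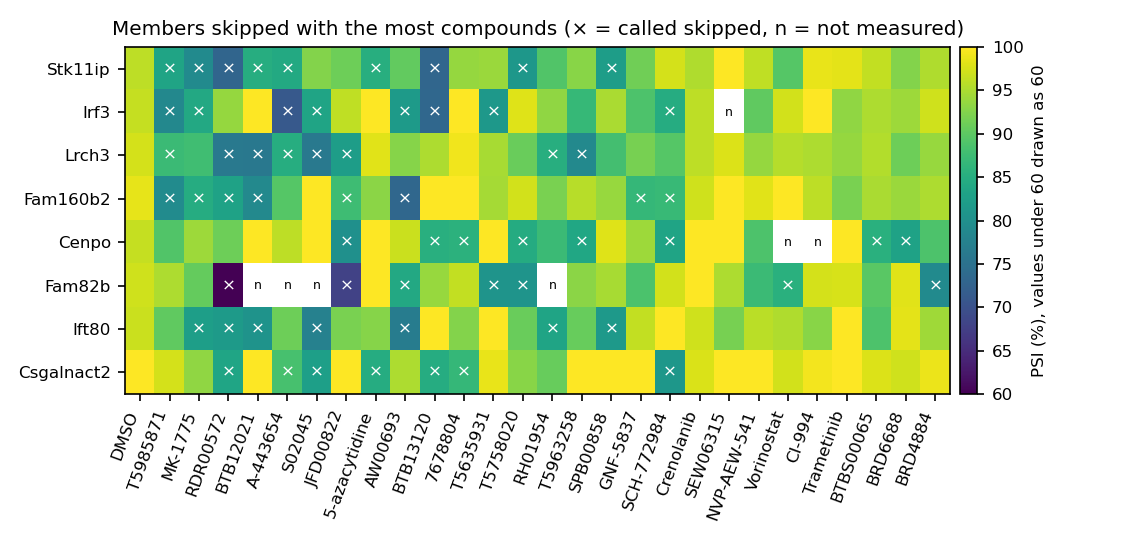
PSI (%) of the 8 exons called skipped with the most compounds (rows), in DMSO (mean) and with each of the 27 compounds (columns, ordered by the share of members called), with a cross for a call, n for no passing value, and values under 60 drawn as 60. Stk11ip carries 9 crosses, and crosses are spread over compounds of all classes, thinning out towards BRD4884 on the right.

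Few exons were low in both replicate libraries of an HDAC inhibitor, and low exons were rare in each library. Of 42338 members measured in both Vorinostat libraries, 18 were at 85 PSI or lower in library A and 26 in library B. Low in both were 2 (11.1% and 7.69% of the lists). With CI-994 the numbers were 24, 23 and 3 of 42913 (12.5% and 13% of the lists). With BRD6688 15 and 13 of 43827 were low and 0 in both, and with BRD4884 8 and 10 of 43950 and 0 in both. The overlap was not tested against the share over all members. The members low in one library had a median PSI of 96 to 100 in its partner. Each of these counts leaves out DMSO values.

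Members low in both libraries were few enough to name the leading ones. For Vorinostat they were Ralgapb, at 84.9 (A) and 81.4 (B) beside 96.4, 97.8 and 96.5 in DMSO, and Rangap1, the GTPase activator of Ran, at 81.6 (A) and 83.5 (B) beside 95.9, 95.8 and 95.9. Both exons were also called with BTB12021, RDR00572 and S02045. For CI-994 they were Osbpl1a, an oxysterol-binding protein gene, at 74.4 (A) and 79.5 (B) beside 100 in each DMSO library, and Mphosph9, a centriole gene, at 84.4 (A) and 83.3 (B) beside 98.3, 96.8 and 97.0. Reads were 34 (A) and 44 (B) for Osbpl1a, and the Rangap1 exon was covered by 492 (A) and 344 (B). RPKM of Rangap1 was 138 in DMSO and 45.2 with Vorinostat.

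Called exons differed from the rest of the members in coverage and in how they were quantified. Their median coverage in DMSO was 157 reads, beside 413 for members never called, and their host genes had a median of 12.4 RPKM beside 28.4. The share called with any compound was 11.3% below 100 reads, 6.59% from 100 to 200, 2.65% from 200 to 500 and 0.854% at 500 reads or more. With T5985871 alone it went from 1.75% in the lowest of these ranges to 0.398% in the highest, and with BTBS00065 from 0.223% to 0.0%. From 100 reads up, T5985871 had the highest share of those plotted in each range, followed by MK-1775 and RDR00572, and with at least 200 DMSO reads T5985871 still had 205 calls and MK-1775 139. The part that coverage plays in the calls was not tested.

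**Figure D5:**
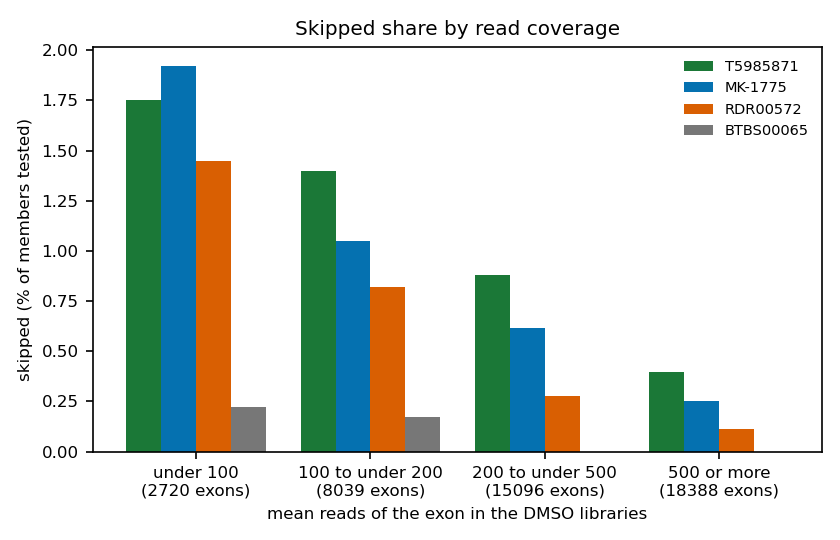
Percent of members called skipped with T5985871, MK-1775, RDR00572 and BTBS00065 (bars), by the mean reads of the exon in the DMSO libraries. All 4 compounds have their highest share below 100 reads and their lowest at 500 or more, and from 200 reads up BTBS00065 has no calls while T5985871 has 0.881% and 0.398%.

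The splicing table quantifies some exons by transcript-derived splicing events (classes S to C3, 15260 members) and others from the gene annotation (class ANN, 29267 members). Of tested S to C3 exons 7.53% were called with at least 1 compound (1137 of 15098), beside 0.885% of ANN exons (258 of 29145), although median DMSO reads were alike at 389 and 407. A lower starting point also went with the calls: PSI was 100 in all 3 DMSO libraries for 26.4% of called exons and for 60.8% of those never called. What these properties contribute was not tested.

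By length and composition, called exons were much like the others. The median length was 115 nt beside 124 nt, 36.1% beside 39.1% had a length that is a multiple of 3, and 81.2% beside 80.5% ended in G. Compounds departed from each other in a few features: exons called with MK-1775 had a median GC content of 53.5% and a median upstream intron of 701 nt, while those called with BTB12021 had 46.0% GC and those with RDR00572 an upstream intron of 1708 nt, beside 50.4% and 1366 nt over all members tested. With T5985871 the share of exons with a length that is a multiple of 3 was 31%. None of these differences was tested.

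Calls of neighbouring exons went together more often than calls in general, although most called exons were called alone. Of 1281 called pairs of exon and compound whose adjacent member in the gene was tested, a neighbour was called too in 95 (7.42%). Of 936410 pairs not called, a neighbour was called in 1600 (0.171%). Neighbours lie in 1 gene and share a library, so these shares are descriptions with no test. Retention of the intron upstream was at least 10 points above DMSO for 13 of 127 exons called with RDR00572 (10.2%), beside 0.812% of all members tested, and for 7 of 115 called with BTB12021 (6.09%), beside 0.35%. For MK-1775 the shares were 2.23% beside 0.269%, and for T5985871 3.05% beside 0.674%. The other benzenesulfonamides, S02045 and RH01954, had 1.14% beside 0.42% and 4.17% beside 0.247%. A-443654 had 1.08% beside 0.199%, while 5-azacytidine and JFD00822 had 6.41% each, beside 0.219% and 0.204%. The median change in upstream retention was 0.0 for the exons called with RDR00572, BTB12021, MK-1775 and T5985871, and 0.65 with S02045. In DMSO the upstream introns of the called exons already had a median retention of 1.33 for MK-1775 and 0.24 for RDR00572, beside 0.12 over members tested. Coverage was lower too, with a median of 162 reads for MK-1775 and 107 for RDR00572, beside 322 and 304. The retention shares, and the part of starting level and coverage in them, were not tested.

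Host gene expression was compared on the log2(RPKM + 0.5) scale, with genes above 5 RPKM. For exons called with T5985871 the median difference from DMSO was -0.25, beside -0.28 for all members tested, and for MK-1775 it was -0.37 beside -0.35. With the HDAC inhibitors the hosts of called exons were lower than hosts in general: the medians were -1.5 beside -0.34 with CI-994, -0.96 beside -0.36 with Vorinostat, -0.82 beside -0.3 with BRD4884 (5 exons) and -0.58 beside -0.06 with BRD6688 (11 exons). GNF-5837 had -0.53 beside -0.19. Called exons also had fewer reads, a median of 68 with CI-994 and 72 with Vorinostat, beside 320 and 266 over members tested. None of these gaps, nor the part of coverage in them, was tested. For 15 of the 24 CI-994 exons the host gene was at least 2-fold lower than in DMSO. Among T5985871 exons 28 hosts were at least 2-fold lower and 15 at least 2-fold higher, of 308 with a value. In bulk RNA, skipped transcripts that are degraded and transcripts made in smaller number cannot be told apart.

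Host genes were also grouped by function, with lists chosen when earlier results of these data were known. Over all members 3.15% were called with at least 1 compound. Among 919 tested exons of DNA replication and repair genes 39 were called (4.24%), with a median coverage of 341 reads beside 401 over all members. They included Atr, called with 4 compounds, and Nthl1, a DNA glycosylase gene, which was called with 5 and was at 100 in each DMSO library and at 63.6 with GNF-5837 on 54 reads. Cell cycle and mitosis genes had 22 of 906 (2.43%), with Cenpc1 called with 4 compounds and Kntc1, a kinetochore gene, with 2.

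Spliceosome and splicing factor genes had the lowest share, 5 of 639 (0.782%), at a high median coverage of 1148 reads. One was Hnrpdl (Hnrnpdl), an RNA-binding protein gene, at 97.9, 97.2 and 97.0 in DMSO A, B and C, 83.2 with MK-1775 on 1750 reads and 82.8 with T5985871 on 1854. Another was Xab2, a subunit of the spliceosome, at 98.3, 97.0 and 98.3 in DMSO and 84.1 with A-443654 on 1974 reads. Both exons rest on far more reads than most called members. All other compounds left Xab2 at 94.4 or higher.

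Kinase signalling genes had 17 of 839 (2.03%). Insr, the insulin receptor, had 95.7, 98.7 and 100 in DMSO A, B and C, 83.9 with RDR00572 and 85.1 with S02045. Membrane trafficking genes had 31 of 1381 (2.24%), among them Ap4e1, called with 4 compounds that were all microexon inhibitors, with a lowest PSI of 83.3, and Vps13b, called with 3 and at 76.7 with 7678804.

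Chromatin regulators had 18 of 1299 (1.39%), led by Kdm2b, a histone demethylase gene, which had 96.6, 97.0 and 96.6 in DMSO A, B and C, 72.7 with MK-1775 and 79.7 with JFD00822. The other named exon of this list was that of Mll3, described above. Ubiquitin and proteasome genes had 17 of 1218 (1.4%), with the deubiquitinases Usp16, at 82.1 with BTB12021, and Usp21, at 81.7 with MK-1775. Translation genes had 10 of 738 (1.36%), with Tars2 and with Cars2, the mitochondrial cysteinyl-tRNA synthetase gene, at 78.1 with BTB12021. Median coverage in these lists ran from 394 to 1181 reads outside the repair and spliceosome lists.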

How the data were processed

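RNA-seq libraries of N2A cells were processed by the authors. Per the methods and labels, vast-tools was run against mm9, and the deposited splicing table holds percent values (PSI, or percent intron retention) per library with quality strings and corrected read counts. Deposited RPKM values, 1 per gene and treatment with libraries pooled, were made from Salmon 0.10.2 estimates (version per the submitters' processing notes). The authors' edgeR columns (fold changes, p-values, FDR) and a table of pooled PSI were not used here. Members, classes and gene lists were chosen with earlier results of these data known.

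Values passed with a coverage score of SOK, OK or LOW and a balance score of OK or B1. A call needed a mean PSI 10 below DMSO and a posterior above 0.95 from 2000 beta draws of the reads. The calling was run on simulated reads that held counting error only. That simulation cannot give the rate of calls due to differences between libraries. Class shares were compared by two-sided exact permutation or 100000 permutations over compounds. limma 3.58.1 (R 4.3.3), with trend, was fitted to the arcsine square root of PSI. Retained introns needed 15 reads and a balance p above 0.05. Host genes needed 5 RPKM in either condition, with a pseudocount of 0.5. Python 3.11.15, numpy 2.4.6, pandas 2.3.3, scipy 1.17.1, statsmodels 0.14.6 and matplotlib 3.10.9 were used. Depth sets the precision of PSI: members had at least 35 reads in every DMSO library, and the posterior covers counting error only.

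Genes were named by rule: for the 5 compounds with the highest shares, the 4 called members with the largest difference at 20 or more reads; the 8 members called with the most compounds; the 2 largest per HDAC inhibitor at or under 85 PSI in both libraries; the 4 smallest p per class by limma, with the rest of the 19 listed; and the 2 most called per gene list. Some items under these rules are not reported here. HDAC inhibitor and DMSO libraries share letters. Over members, the difference A minus B of each HDAC inhibitor was uncorrelated with that of DMSO (r of -0.009 to 0.003), so letters were not taken as pairs. Alternatives covered the size of the difference, the posterior, DMSO values, coverage, left-out libraries and compounds, scales, pseudocount and RPKM limits.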

Additional observations from a re-analysis of the deposited data

How the results depend on the processing

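The total of 2120 calls depended most on the size of the difference asked for: it was 178 at 20 PSI, 835 when PSI at or under 85 replaced the DMSO comparison, and 886 among members at 98 PSI or more in DMSO. Other settings were chosen after seeing the data: members with 200 DMSO reads or more gave 779 calls, and S to C3 exons alone gave 1800. Leaving out a DMSO or HDAC inhibitor library gave 2058 to 2276. T5985871 had the highest share under every one of these settings, and MK-1775 the next except at 20 PSI, where RDR00572 did. Of 378 values per compound under the alternatives, 261 stayed within 1.5 times and 117 moved further.

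HDAC inhibitor and DMSO libraries share the letters A and B, which were not taken as pairs. Fitting them as a replicate block gave 2106 calls, with class differences of 0.111 (benzenesulfonamides), -0.168 (HDAC inhibitors), 0.00334 (kinase inhibitors) and 0.142 (microexon inhibitors) percentage points, and it changed no call of a class test.

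The kinase inhibitors' difference in share, 0.00187, changed sign to -0.00105 at 20 PSI, -0.00235 at 85 PSI, -0.012 among members at 98 PSI, and -0.00626 in the mean level of skipping. With 1 HDAC inhibitor library left out it was -0.0161 to -0.0135, within a range of -0.0161 to 0.00369 over all left-out libraries. None of these p-values passed, so no direction can be read. Microexon inhibitors differed by 0.14 in share and passed only in the mean level (0.181, adjusted p = 0.0034), which was added after seeing the data.

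In limma the benzenesulfonamide count of 19 was 1 at 20 PSI and 15 to 32 with a compound or library left out. For HDAC inhibitors the count of 0 was 1 among exons that range over 10 PSI. For microexon inhibitors it was 1 there and on the logit scale, and 0 to 1 with a compound or library left out. HDAC inhibitor libraries shared 5 low members at 85 PSI and 0 at 75 PSI. The median host RPKM difference of called members, -0.07 over compounds, moved little with the pseudocount or RPKM limit. Coverage limits exons under about 100 reads most.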
